A study of Mus musculus with 27 samples.

Results

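The 200 most abundant long noncoding RNAs of the mouse macrophage line RAW264.7 were followed through 27 libraries of total RNA, anti-HuR immunoprecipitates and control IgG immunoprecipitates. A long noncoding RNA is a long transcript that is not translated into a known protein. Members were chosen on the read counts themselves: among rows of a long noncoding class, the 200 with the largest counts summed over the 12 total RNA libraries were kept, leaving out Bc1. The counts table mostly spells this class lincRNA, so both spellings were accepted where protein_coding did not stand beside them. That gave 6046 rows, of which 2595 had at least 1 count in total RNA, and the 200 members stand among 55483 rows in all. Taken by the spelling lncRNA alone, the class held 225 rows, 179 of them with counts, and 33 of these were among the 200. At the lower end, Gm26652 with 161 summed counts and Snhg18 and Gm26910 with 160 each were kept. Just outside lay A930014D07Rik, tied at 160, Gm43661 at 159 and C030037D09Rik at 158.

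Cells were held for 6 h in the solvent DMSO as control or in LPS at 1 µg/ml. LPS was given with DMSO (labelled LPS+DMSO, called LPS below) or with 10 µM TM7nox. LPS, a lipopolysaccharide of bacterial cell walls, activates macrophages through Toll-like receptor signalling, and TM7nox is a tanshinone mimic, a class of small molecules made to interfere with RNA binding by HuR. All groups are the same line, for which the labels name no genetic change, and each treatment had 4 total RNA libraries, 4 anti-HuR libraries and 1 IgG library, the last being replicate 3 in all cases. The labels number the replicates and do not say whether they were separate cultures, so the p-values measure the spread between libraries, which may be technical. Each sample came from a bulk culture of 30 M cells, in which fewer cells expressing an RNA and less RNA per cell cannot be told apart.

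Long noncoding RNAs work in several ways. Some stay in the nucleus and organise chromatin or nuclear bodies, some act in the cytoplasm by holding proteins or microRNAs, and others are the spliced remains of genes whose introns or exons carry snoRNAs or microRNAs. HuR, the product of Elavl1, is an RNA-binding protein that prefers U-rich and AU-rich stretches and shuttles between nucleus and cytoplasm. It is best known for stabilising short-lived inflammatory mRNAs, and it also binds noncoding RNAs. In a ribonucleoprotein immunoprecipitation (RIP), RNAs carried by the antibody's target are recovered on beads and sequenced, so a gene's RIP level set against total RNA and against IgG describes its recovery.

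Depth differed between libraries. Total RNA libraries held 2.73 to 28.3 M counts, RIP libraries 19.8 to 41.4 M and IgG libraries 8.87 to 24.5 M. The shallowest, RNA DMSO replicate 1, detected 146 of the 200 members, so values in it rest on few reads. Elavl1 mRNA averaged 90.2, 109 and 92.1 CPM in total RNA of DMSO, LPS and LPS+TM7nox, and 2645, 3639 and 3904 CPM in RIP (n = 4 each), and was at 60.7, 90.8 and 77.5 CPM in the single IgG libraries. Il1b, an inflammatory cytokine induced by LPS, averaged 0.706, 1136 and 319 CPM in total RNA of the same groups. Of the other preset treatment checks, Tnf averaged 52.6, 677 and 991 CPM, Hmox1 57.0, 98.5 and 1023 CPM and Actb 4653, 9353 and 4897 CPM. All 10 macrophage markers were above 1 CPM in total RNA, and none of the T cell, B cell, fibroblast, epithelial or neutrophil markers was, by their means over the 12 libraries. The neutrophil marker S100a8 averaged 2.33 CPM in LPS, with 1.53 to 3.21 CPM in its 4 libraries. Levels below are CPM, counts scaled to a common library size, on 1 TMM scale over the 27 libraries, which sets a typical gene equal between libraries. Values of a group are in the order replicate 1 to replicate 4. A difference is a log2 fold change with an approximate standard error (SE), its absolute value divided by the square root of the test's F. It is called where the adjusted p of edgeR's quasi-likelihood F test is under 0.05. The test was two-sided, with Benjamini-Hochberg adjustment over all genes tested.

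U-rich stretches are shown first because HuR prefers U and recovery is compared with U content further on. For each member listed, the stretch of 60 exonic bases with the most U was read from GRCm39 with the exons of GENCODE M39, and capitals mark runs of at least 4 U. The 5 first are members far above total RNA in the anti-HuR libraries and the 4 last are members below it.
Gm20300 (chr10:30482523-30482582, minus strand): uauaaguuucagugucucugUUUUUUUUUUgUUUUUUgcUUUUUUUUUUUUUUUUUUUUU
AA465934 (chr11:83182735-83182794, plus strand): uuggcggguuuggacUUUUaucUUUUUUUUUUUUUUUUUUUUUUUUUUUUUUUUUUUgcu
Gm9776 (chr13:94493930-94493989, minus strand): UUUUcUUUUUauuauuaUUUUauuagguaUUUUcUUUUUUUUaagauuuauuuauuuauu
Gm10134 (chr2:28396114-28396173, plus strand): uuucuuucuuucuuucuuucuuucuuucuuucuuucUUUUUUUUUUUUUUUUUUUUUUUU
2900097C17Rik (chr2:156233396-156233455, minus strand): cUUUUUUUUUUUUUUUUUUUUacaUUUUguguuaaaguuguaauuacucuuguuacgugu
Gm9484 (chr5:97144096-97144155, minus strand): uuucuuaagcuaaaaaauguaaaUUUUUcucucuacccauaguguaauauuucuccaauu
Gm4316 (chr8:123899035-123899094, plus strand): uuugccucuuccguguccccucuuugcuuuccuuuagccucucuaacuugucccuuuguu
Gas5 (chr1:160864655-160864714, plus strand): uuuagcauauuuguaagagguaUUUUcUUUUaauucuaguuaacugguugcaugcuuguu
Snhg8 (chr3:123301284-123301343, minus strand): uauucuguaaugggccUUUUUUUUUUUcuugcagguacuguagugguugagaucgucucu
Of the 60 bases, 46 were U in Gm20300, 46 in AA465934, 43 in Gm9776, 51 in Gm10134 and 39 in 2900097C17Rik. The stretch held 26 U in Gm9484, 29 in Gm4316, 30 in Gas5 and 29 in Snhg8. Other members called lower had richer stretches, with 38 U in Gm12031 and 39 in Snhg6. Being the richest stretch of each transcript, these windows describe the sequences and are not binding sites. Longer transcripts have more stretches to choose from.

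A few members held most of the reads. Malat1, a nuclear RNA of splicing speckles, took 39.1% of all member counts in total RNA, the 10 leading members took 75.9% and the 50 leading members 91.0%. The 200 together held 95.1% of the counts of the whole class. The members' mean level in total RNA ranged from 0.437 to 774 CPM with a median of 1.34 CPM, 20 members lay above 10 CPM and 127 above 1 CPM. After Malat1 came Gm46620 with 229.9 to 439.7 (median 309) CPM over the 12 libraries, and 2900097C17Rik, named Norad in GENCODE M39 and known for holding Pumilio proteins in the cytoplasm, with 61.7 to 138 (median 98.7) CPM. Neat1, the scaffold of nuclear paraspeckles, had 17.4 to 56.2 (median 35.0) CPM. These levels chose the members and are given as a description.

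**Figure D1:**
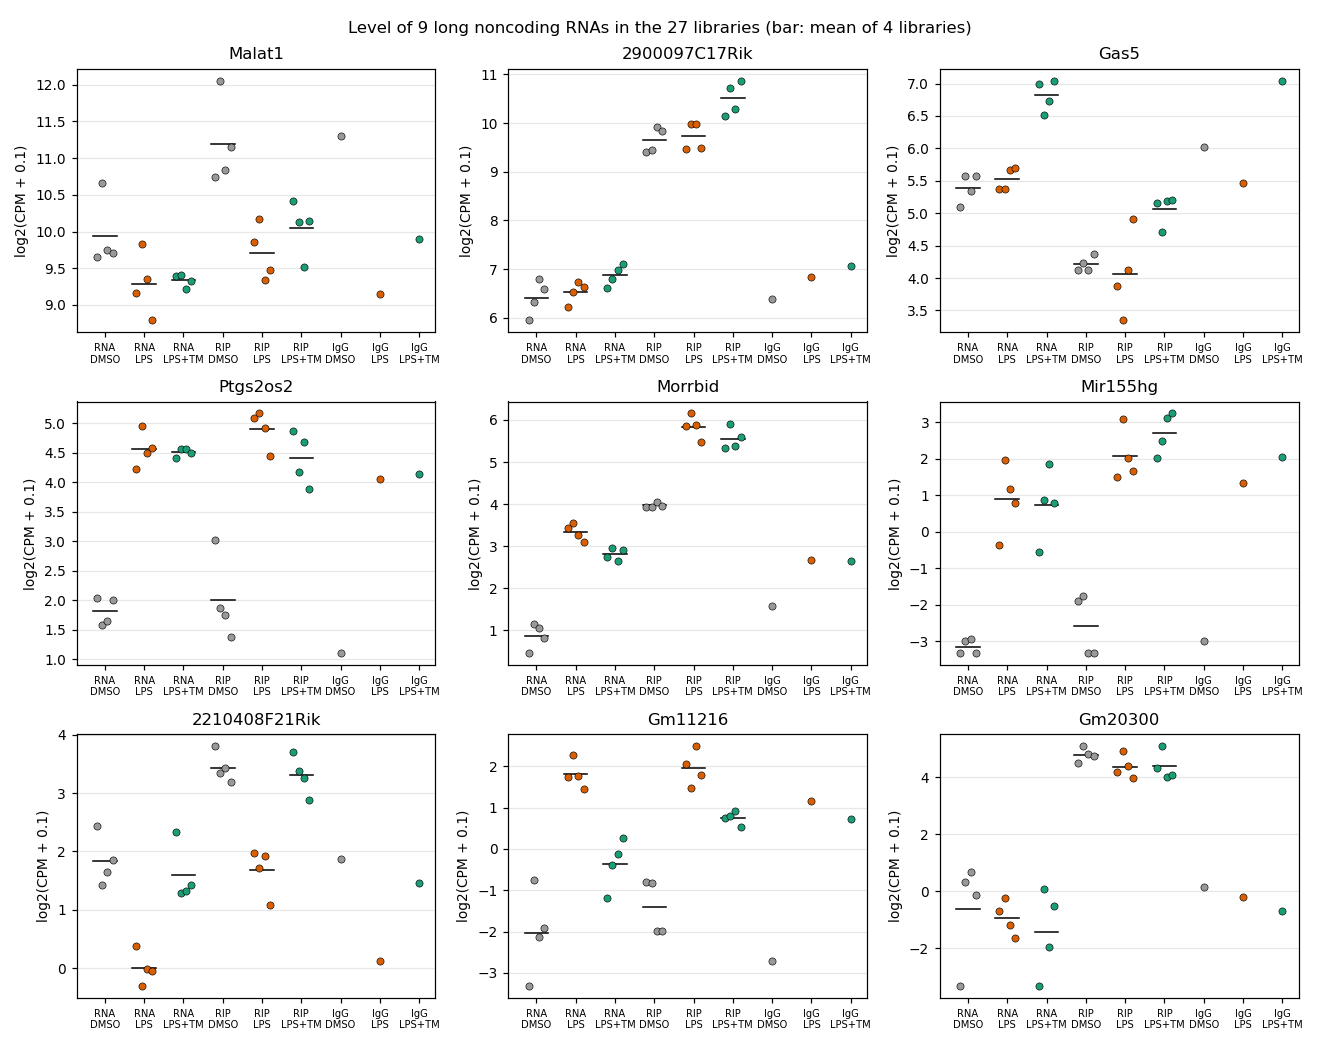
Levels of 9 members, each on its own vertical axis of log2(CPM + 0.1), in the 27 libraries grouped by assay and treatment (LPS+TM stands for LPS+TM7nox), with 1 point per library and a bar at the mean of each group of 4. Morrbid, Ptgs2os2, Mir155hg and Gm11216 stand higher in the LPS libraries than in DMSO in total RNA, Gas5 stands higher in RNA LPS+TM7nox than in RNA LPS, and Gm20300 and 2900097C17Rik stand higher in RIP than in total RNA or IgG.

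Members made up a small share of each library, given here as a description that was not tested. In total RNA they held 0.342% ± 0.047 of counts in DMSO, 0.227% ± 0.033 in LPS and 0.235% ± 0.020 with TM7nox added (SD, n = 4 each). In RIP the shares were 0.476% ± 0.141, 0.193% ± 0.028 and 0.241% ± 0.033 (SD, n = 4 each), and in the single IgG libraries 0.761%, 0.230% and 0.317%. In DMSO, Malat1 alone made up 44.8% ± 8.15 of the member counts of total RNA (SD, n = 4). Without Malat1 the total RNA shares were 0.187% ± 0.019, 0.148% ± 0.014 and 0.158% ± 0.016 (SD, n = 4 each). The RIP shares without it were 0.233% ± 0.022, 0.141% ± 0.014 and 0.177% ± 0.015 (SD, n = 4 each). In the RIP DMSO libraries Malat1 alone held 0.161% to 0.420% of counts, the most in replicate 2.

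With LPS against DMSO in total RNA, the microRNA host Mir155hg and the myeloid transcripts Ptgs2os2 and Morrbid rose, while Malat1, Oip5os1 and a number of predicted transcripts fell. In all, 62 of 200 members were called, 32 higher and 30 lower. Over all genes tested, 42.0% were called (20.2% higher and 21.7% lower), against 31% of the members. Their median log2 fold change was -0.18 against -0.04 for all genes. Scaling by library size alone put the median of all genes at -0.32 and gave 26 higher and 47 lower. The total RNA libraries that chose the members are the ones compared here, so a member that rises with LPS could enter through its LPS libraries. This was so for Mir155hg and Gm47729, with 2 and 1 reads in DMSO against 160 summed counts at the cut. Their rise is thus tied to the choice of members and is given as a description.

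All 3 members listed for macrophage activation rose, Mir155hg being one that entered through libraries given LPS. Ptgs2os2, transcribed from beside the cyclooxygenase gene Ptgs2, was at 4.03, 2.91, 3.02 and 3.91 CPM in DMSO and 18.5, 31.0, 22.5 and 23.7 CPM in LPS (log2 fold change 2.80, SE 0.18, adjusted p = 3.35e-08). Morrbid, which restrains the proapoptotic gene Bcl2l11 in short-lived myeloid cells, was at 1.27, 2.14, 1.96 and 1.68 CPM in DMSO and 10.7, 11.6, 9.58 and 8.52 CPM in LPS (log2 fold change 2.44, SE 0.19, adjusted p = 2.31e-07). In both genes every LPS library lay above every DMSO library. Mir155hg, the host of the inflammatory microRNA miR-155, was at 0, 0.0257, 0.0322 and 0 CPM in DMSO and 0.684, 3.80, 2.16 and 1.62 CPM in LPS (log2 fold change 6.45, SE 0.91, adjusted p = 5.81e-05). Its DMSO level rests on 2 reads against 249 in LPS, a ratio of scaled counts of 113 with an exact interval from 31 to 940 that covers counting error only.

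Among members with predicted symbols, Gm20559 was the most abundant riser. It stood at 7.84, 9.29, 6.21 and 5.10 CPM in DMSO and 37.6, 40.2, 37.3 and 35.8 CPM in LPS (log2 fold change 2.39, SE 0.20, adjusted p = 3.97e-07). Gm20186 was at 0, 0.412, 0.161 and 0.164 CPM in DMSO and 3.89, 4.87, 4.50 and 3.99 CPM in LPS (log2 fold change 4.17, SE 0.39, adjusted p = 1.31e-06), and without RNA DMSO replicate 2 its log2 fold change was 4.81. The groups did not overlap in either gene. 2500002B13Rik was at 0, 1.21, 0.418 and 0.526 CPM and 5.47, 12.2, 10.1 and 9.67 CPM (log2 fold change 3.80, SE 0.47, adjusted p = 1.73e-05), which became 4.45 without RNA DMSO replicate 2. Gm47729 had 1 read in DMSO and 169 in LPS, a ratio of 154 with an exact interval from 27.2 to 6104. Its fitted value of 6.78 became 8.32 without RNA DMSO replicate 2, the library that held the single read. The size of the rise in such near-silent genes is thus poorly set by these counts.

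Members that fell did so by smaller folds. 4933404O12Rik was at 22.5, 26.0, 26.1 and 22.2 CPM in DMSO and 8.55, 7.48, 4.19 and 5.05 CPM in LPS (log2 fold change -1.97, SE 0.34, adjusted p = 0.00033). D430020J02Rik was at 1.696, 3.71, 2.28 and 2.60 CPM and 0.727, 0.742, 0.378 and 0.437 CPM (log2 fold change -2.22, SE 0.53, adjusted p = 0.00362). 2210408F21Rik, whose exons overlap those of Lncpint on the other strand, was at 5.30, 2.60, 3.02 and 3.52 CPM and 1.20, 0.709, 0.893 and 0.874 CPM (log2 fold change -1.96, SE 0.35, adjusted p = 0.00045). In these 3 genes no LPS library reached the lowest DMSO library. B230312C02Rik was also lower (log2 fold change -2.33, SE 0.52, adjusted p = 0.0023), as was Oip5os1, known as Cyrano and involved in the destruction of the microRNA miR-7 (log2 fold change -0.56, SE 0.12, adjusted p = 0.00178).

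Of the 7 nuclear or chromatin-linked members, 2 were lower, Malat1 and Ftx, and none was higher. Malat1 was at 805, 1623, 862 and 833 CPM in DMSO and 575, 910.2, 652 and 443 CPM in LPS (log2 fold change -0.70, SE 0.24, adjusted p = 0.0278). The groups overlapped, DMSO replicate 2 stood apart from the other DMSO libraries, and the call was lost (adjusted p = 0.115) without it. It was also lost when any of RNA LPS replicates 1, 3 or 4 was left out. Ftx, a noncoding gene of the X-inactivation centre, had a log2 fold change of -0.86 (SE 0.33, adjusted p = 0.0478), and that call was lost without RNA DMSO replicates 2, 3 or 4 or RNA LPS replicates 2, 3 or 4 and with median-ratio size factors (RLE, computed in edgeR; adjusted p = 0.0586). Library size alone called 3 of the 7 lower. The snoRNA and microRNA hosts here are lists by symbol, and in GENCODE M39 exons of other members, such as 1110038B12Rik, 2700038G22Rik and AI506816, also hold snoRNAs, and those of 6720427I07Rik, Gm26652 and 4833445I07Rik microRNAs. Of the 14 listed snoRNA hosts, 2 were lower and none higher, with a median of -0.40, and library size alone gave 4 lower. Snhg20 was at 8.05, 3.78, 4.21 and 3.85 CPM in DMSO and 1.54, 3.26, 2.61 and 2.09 CPM in LPS (log2 fold change -1.04, SE 0.32, adjusted p = 0.0163), and Snhg5 was lower by a fragile margin (log2 fold change -0.78, SE 0.29, adjusted p = 0.0412), lost without RNA DMSO replicates 2, 3 or 4 or RNA LPS replicates 3 or 4 and with median-ratio size factors (adjusted p = 0.0523). Gas5 did not differ by the test (log2 fold change 0.09, SE 0.14, adjusted p = 0.629). Of the 4 listed microRNA hosts, Mir155hg was higher, 1 was lower and the median was -0.69. The lower call was lost with median-ratio size factors. Of the 62 calls, 39 (25 higher and 14 lower) were kept in every fit that left out 1 library. With replicates 1 and 2 alone 15 were kept, and with replicates 3 and 4 alone 54.

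**Figure D2:**
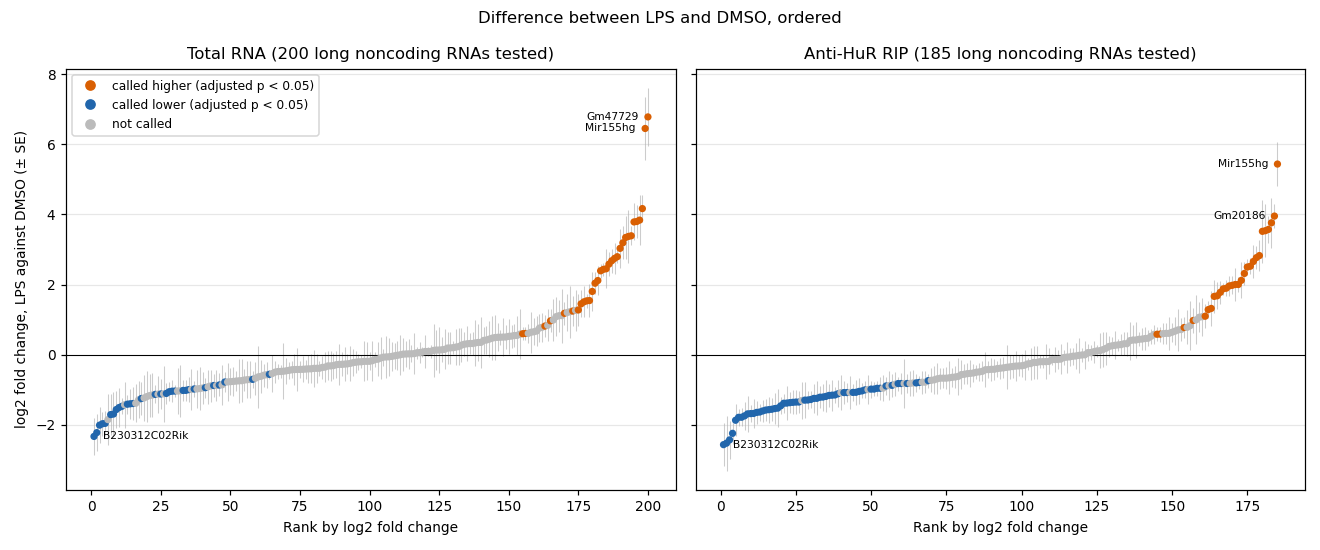
Log2 fold change in LPS against DMSO, ordered by size, for the 200 members tested in total RNA (left) and the 185 tested in RIP (right), with 1 point per member, bars of 1 standard error and calls in colour. In total RNA the 32 members called higher reach 6.78 and the 30 called lower reach -2.33, and in RIP the 57 called lower outnumber the 29 called higher.

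Promoters of Ptgs2os2 and Morrbid are shown because both rose with LPS. They were taken from RefSeq on GRCm38.p6, each spanning 250 bases before to 50 bases after a start site, and other starts of these genes are not covered. Capitals mark matches on either strand to 4 motifs that are known for inflammatory genes: the NF-kB motif in a long form (GGG, any 2 bases, TTTCC) and a short form (GGG, any 2 bases, TTCC), the AP-1 motif TGACTCA, and an interferon response motif (TTTC, any 2 bases, TTTC).
Morrbid (chr2:128429302-128429601, minus strand): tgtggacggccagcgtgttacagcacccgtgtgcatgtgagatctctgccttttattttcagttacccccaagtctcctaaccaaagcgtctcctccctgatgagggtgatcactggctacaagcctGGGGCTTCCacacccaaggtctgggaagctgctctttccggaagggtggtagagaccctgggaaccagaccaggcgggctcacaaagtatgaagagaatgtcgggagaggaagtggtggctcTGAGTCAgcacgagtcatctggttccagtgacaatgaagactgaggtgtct
Ptgs2os2 (chr1:150164899-150165198, minus strand): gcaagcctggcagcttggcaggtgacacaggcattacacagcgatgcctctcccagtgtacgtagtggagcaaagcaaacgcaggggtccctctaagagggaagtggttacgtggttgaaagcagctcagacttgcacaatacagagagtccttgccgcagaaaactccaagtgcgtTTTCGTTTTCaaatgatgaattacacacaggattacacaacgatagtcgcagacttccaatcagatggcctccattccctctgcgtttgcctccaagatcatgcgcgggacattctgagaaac
Morrbid held the short NF-kB form at position -123 from the start and TGACTCA at -1, and Ptgs2os2 held the interferon response motif at -73. Of 32851 promoters in the table, 1.63% held the long NF-kB form, 5.82% the short form, 5.2% TGACTCA and 3.44% the interferon response motif. RefSeq had a promoter for 130 members. A member was counted if any of its promoters matched, so its shares are not on the per-promoter measure above. By this count 5.38% of the 130 held the long NF-kB form, 7.69% the short form, 8.46% TGACTCA and 4.62% the interferon response motif. Of the 23 among these members that rose with LPS, 1 held the long NF-kB form, 1 the short form, 3 TGACTCA and 3 the interferon response motif. Of the 20 that fell, 3 held the short NF-kB form, 2 TGACTCA and 0 either of the others. A match is a description of the letters, not a site.

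LPS against DMSO in the anti-HuR libraries gave more falls than rises. The test covered 185 members, 15 not passing the filter on low counts there, and called 86: 29 higher and 57 lower. Over all genes tested 44.7% were called, against 46.5% of the members tested. Higher calls made up 15.7% of the members tested and 23.5% of all genes, and lower calls 30.8% and 21.2%. The members' median was -0.38 against 0.00 for all genes. Scaling by library size alone put the median of all genes at -0.63 and gave 22 higher and 106 lower. RIP levels carry both the amount of an RNA and its recovery, and the 2 are separated only by the comparison with total RNA described further on.

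In RIP, Mir155hg and 4 predicted transcripts, Gm20186, Gm5149, Gm11216 and Gm21860, had the 5 largest increases with LPS among calls whose libraries did not overlap. Mir155hg was at 0.169, 0.198, 0 and 0 CPM in DMSO and 2.73, 8.41, 3.94 and 3.07 CPM in LPS (log2 fold change 5.44, SE 0.62, adjusted p = 3.82e-06), which became 6.05 without RIP DMSO replicate 2. Gm20186 was at 1.46, 0.794, 0.729 and 1.81 CPM and 16.5, 25.1, 15.6 and 16.9 CPM (log2 fold change 3.96, SE 0.35, adjusted p = 2.51e-07). Gm5149 was at 0, 0.0662, 0 and 0.151 CPM and 0.694, 0.473, 1.09 and 0.579 CPM (log2 fold change 3.76, SE 0.72, adjusted p = 0.000511). The other two were Gm11216 (log2 fold change 3.57) and Gm21860 (3.54), and Gm47729, which rose most in total RNA, had 3.52 in RIP. Without RIP DMSO replicate 4 the values of Gm5149 and Gm21860 were 4.66 and 4.44, and that of Gm47729 was 5.59 without RIP DMSO replicate 1 and 2.85 without RIP LPS replicate 1. Of the macrophage-activation list, Ptgs2os2 and Morrbid were also higher. Ptgs2os2 was at 8.03, 3.57, 3.28 and 2.51 CPM and 33.7, 35.7, 30.1 and 21.6 CPM (log2 fold change 2.77, SE 0.33, adjusted p = 5.67e-06), and Morrbid at 15.1, 15.2, 16.5 and 15.4 CPM and 57.8, 71.1, 59.0 and 44.4 CPM (log2 fold change 1.88, SE 0.18, adjusted p = 4.61e-07). The DMSO and LPS libraries did not overlap in Mir155hg, Gm20186, Gm5149, Ptgs2os2 or Morrbid. Across the members, 24 were called higher in both assays, 24 lower in both, 33 lower in RIP but not called in total RNA, and 5 higher in RIP but not called in total RNA. Another 8 were called higher and 4 lower in total RNA without a call in RIP, and 2 lower in total RNA were not tested in RIP. No member's change with LPS was called different between the assays, so these groups of calls do not show a difference.

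Most nuclear RNAs fell in RIP. Of the 7, 5 were lower, and the median was -1.21. Malat1 was at 1712, 4259, 1825 and 2272 CPM in DMSO and 926, 1153, 648 and 709.6 CPM in LPS (log2 fold change -1.58, SE 0.31, adjusted p = 0.00065), with no overlap and RIP DMSO replicate 2 far above the rest. Lncpint, a p53-linked RNA, was at 6.47, 16.1, 6.62 and 8.64 CPM and 5.64, 3.26, 2.23 and 3.82 CPM (log2 fold change -1.36, SE 0.35, adjusted p = 0.00464). Jpx, an activator of Xist, was at 4.30, 6.15, 4.13 and 5.88 CPM and 2.64, 2.31, 1.502 and 2.09 CPM (log2 fold change -1.28, SE 0.25, adjusted p = 0.000609). Ftx fell (log2 fold change -1.03, SE 0.21, adjusted p = 0.000961), and Pvt1, a neighbour of Myc, was lower (log2 fold change -1.21, SE 0.39, adjusted p = 0.0183), a call lost without RIP DMSO replicate 2 or RIP LPS replicate 3. Neat1 and Dleu2 were not called (-1.08 and -0.54), but were with the replicate number as a block (adjusted p = 0.00424 and 0.0109). RIP DMSO replicate 2 was the highest DMSO library for Malat1, Neat1, Lncpint, Jpx and Pvt1, so their DMSO levels rest in part on it.

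Of the 13 snoRNA hosts tested, 5 were lower in RIP with LPS and none higher. The block and DESeq2 each gave 7 and library size alone 11. Dancr fell (log2 fold change -1.57, SE 0.37, adjusted p = 0.00286), as did Snhg15 (log2 fold change -1.07, SE 0.25, adjusted p = 0.00259), Snhg17 (log2 fold change -0.98, SE 0.20, adjusted p = 0.000782) and Snhg4 (log2 fold change -0.89, SE 0.26, adjusted p = 0.0114), while Snhg6 (-0.82) lost its call without RIP DMSO replicate 2 or RIP LPS replicates 3 or 4. Snhg5 and Snhg12 joined under the block (adjusted p = 0.0235 and 0.00885). Of the 4 microRNA hosts, Mir155hg was higher and Mir17hg and Mir99ahg were lower. Mir17hg, host of the miR-17 to miR-92 cluster, had -1.19, with the call lost without RIP DMSO replicates 1 or 2 or RIP LPS replicates 3 or 4. Mir99ahg, host of miR-99a and let-7c, had -1.24, lost without RIP DMSO replicates 1, 2 or 3 or RIP LPS replicates 3 or 4. Of the 86 calls, 63 (23 higher and 40 lower) held in every fit that left out 1 library.

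TM7nox with LPS against LPS in total RNA raised the snoRNA hosts Gas5 and Snhg12. Of 200 members 18 were called, 9 higher and 9 lower, which is 9% of members against 13.8% of all genes (7.37% higher and 6.40% lower). The members' median was -0.05 and that of all genes 0.00. With the replicate number as a block, 33 were called, the 18 among them. The calls rest on few libraries: 6 of 18 held in every fit that left out 1 library, 1 with replicates 1 and 2 alone and 13 with replicates 3 and 4 alone. The 6 were Gas5, Snhg12, 2210408F21Rik and AU022793, all higher, and Gm11216 and Gm29340, both lower. Gm29340 falls outside the naming rule and is named for being in this count.

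Gas5, whose introns carry a row of box C/D snoRNAs and whose spliced RNA is kept low by translation-linked decay in growing cells, showed the clearest change. It was at 34.1, 47.4, 40.6 and 47.3 CPM in DMSO, 41.4, 41.5, 50.8 and 51.5 CPM in LPS and 127, 91.6, 106 and 132 CPM in LPS+TM7nox (log2 fold change 1.30, SE 0.14, adjusted p = 4.45e-05). Every LPS+TM7nox library lay above every other total RNA library. Snhg12, another snoRNA host, was at 4.02, 4.90, 4.95 and 5.15 CPM in LPS and 11.6, 12.5, 10.1 and 10.8 CPM in LPS+TM7nox (log2 fold change 1.24, SE 0.21, adjusted p = 0.00136), also with no overlap. Of the 14 snoRNA hosts these 2 were called, 12 had a positive sign and the median was 0.30. Snhg1 (0.70) and Snhg5 (0.70) were not called, but passed with the block (adjusted p = 0.0341 and 0.0388) and in 4 and 3 of 16 alternatives in all. Exons of Gas5 overlap Zbtb37 on the other strand, and whether reads were counted by strand is not given in the sources used here.

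Some members were called with LPS and also with LPS+TM7nox. Since both comparisons use the same LPS libraries, values are set side by side and nothing is read from the pattern itself. 2210408F21Rik was at 5.30, 2.60, 3.02 and 3.52 CPM in DMSO, 1.20, 0.709, 0.893 and 0.874 CPM in LPS and 4.96, 2.35, 2.41 and 2.59 CPM in LPS+TM7nox (log2 fold change 1.74, SE 0.34, adjusted p = 0.00393). AU022793 was at 1.696, 2.21, 1.96 and 2.47 CPM in DMSO, 0.898, 0.967, 0.859 and 1.28 CPM in LPS and 2.82, 1.84, 3.64 and 3.95 CPM in LPS+TM7nox (log2 fold change 1.61, SE 0.29, adjusted p = 0.0022 for the last step, -1.10 for the first). In both genes the LPS libraries lay below those of the other treatments. Gm11216 was at 0, 0.489, 0.129 and 0.164 CPM in DMSO, 3.25, 4.71, 3.30 and 2.65 CPM in LPS and 0.340, 0.661, 0.823 and 1.10 CPM in LPS+TM7nox (log2 fold change -2.23, SE 0.46, adjusted p = 0.00508), with its LPS libraries above the rest. B230312C02Rik, lower with LPS, had a log2 fold change of 1.79 with TM7nox, a call lost without RNA LPS replicates 1, 2 or 4 or RNA LPS+TM7nox replicates 1 or 3. Of those higher with LPS, 2500002B13Rik (-1.37) lost its call without RNA LPS replicates 2, 3 or 4 or RNA LPS+TM7nox replicates 1, 3 or 4, and 2310001H17Rik (-1.74) without RNA LPS replicates 2, 3 or 4 or RNA LPS+TM7nox replicates 1, 2, 3 or 4.

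The LPS-induced members linked to activation were not among them. Morrbid was at 6.61, 7.64, 6.17 and 7.39 CPM in LPS+TM7nox (log2 fold change -0.54, SE 0.17, adjusted p = 0.0539), a step that passed in 3 of 16 alternatives, the block among them (adjusted p = 0.0262). Ptgs2os2 was at 21.1, 23.6, 23.5 and 22.4 CPM (log2 fold change -0.08, SE 0.16, adjusted p = 0.822) and Mir155hg at 0.583, 1.73, 3.54 and 1.61 CPM (log2 fold change -0.13, SE 0.53, adjusted p = 0.91). Their levels with TM7nox overlapped those in LPS for Ptgs2os2 and Mir155hg and lay below them for Morrbid.

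**Figure D3:**
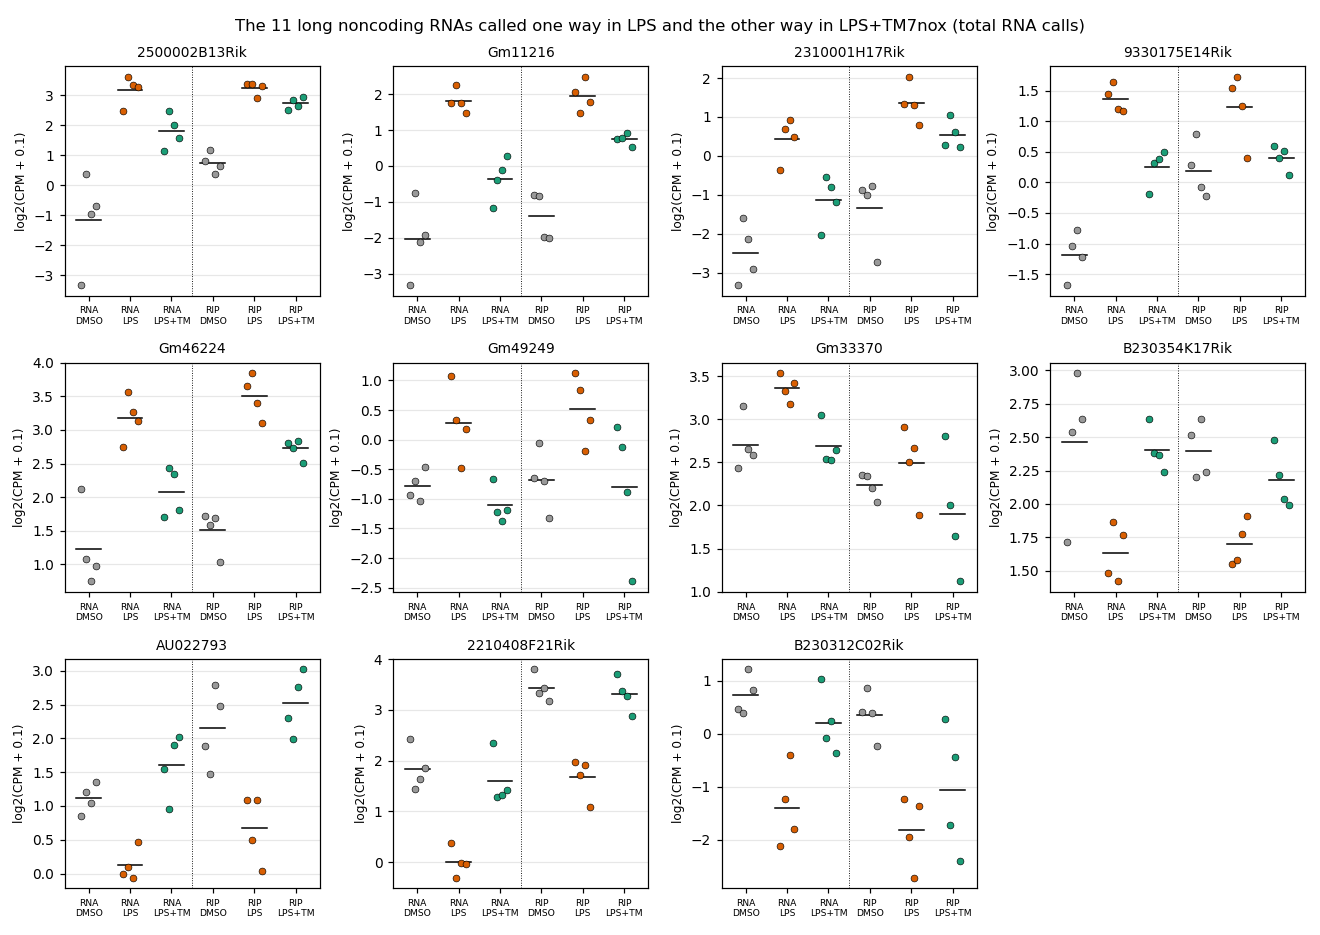
Levels, as log2(CPM + 0.1), of the 11 members called in one direction with LPS and in the other with LPS+TM7nox in total RNA, in the 12 total RNA and 12 RIP libraries (LPS+TM stands for LPS+TM7nox), with 1 point per library and a bar at the mean of 4. The LPS mean lies highest in total RNA in the first 7 panels and lowest in the other 4.

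In the anti-HuR libraries TM7nox gave 23 calls among 185 members tested, 16 higher and 7 lower. That is 12.4% against 16.2% of all genes (8.64% higher and 7.61% lower), with a median of 0.10 against -0.03. The block gave 43 calls, 9 were kept with replicates 1 and 2 alone, 9 with replicates 3 and 4 alone, and 12 in every fit that left out 1 library. 2210408F21Rik was at 3.84, 3.20, 3.68 and 2.03 CPM in LPS and 13.0, 10.3, 9.51 and 7.29 CPM in LPS+TM7nox (log2 fold change 1.61, SE 0.24, adjusted p = 0.000309), and AU022793 at 2.04, 1.31, 2.02 and 0.927 CPM and 4.84, 3.86, 6.67 and 8.01 CPM (log2 fold change 1.83, SE 0.34, adjusted p = 0.00185). Both had also risen in total RNA. Gm10419 was at 3.52, 4.94, 4.71 and 3.53 CPM and 16.99, 18.8, 11.6 and 9.10 CPM (log2 fold change 1.72, SE 0.29, adjusted p = 0.000857), while its total RNA step was 1.31 and passed in 2 of 16 alternatives, the block among them (adjusted p = 0.0276). Gm44751 fell from 9.44, 9.67, 7.82 and 7.13 CPM to 2.80, 3.52, 1.40 and 1.35 CPM (log2 fold change -1.95, SE 0.29, adjusted p = 0.000379). In these 4 genes the groups did not overlap. Gas5 had a log2 fold change of 0.86 (adjusted p = 0.0302), lost without RIP LPS replicates 1, 2 or 3 or RIP LPS+TM7nox replicates 1, 3 or 4. Norad, listed as 2900097C17Rik, had 0.75 (adjusted p = 0.0262), lost without RIP LPS replicates 1 or 4 or RIP LPS+TM7nox replicates 2 or 4. Its total RNA step was 0.35, not called in the main fit but called higher with the block.

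Recovery with HuR was read in 2 ways: RIP over total RNA, averaged over the 3 treatments, and anti-HuR against IgG. The first shares the total RNA columns that chose the members, and the second does not use them. RIP over total RNA called 140 of 200 members, 90 higher and 50 lower, or 70% against 81.1% of all genes. Anti-HuR against IgG called 114, 80 higher and 34 lower, or 57% against 68.1% of all genes. Higher calls made up 45% of members and 40.5% of all genes over total RNA, and lower calls 25% and 40.6%. Against IgG, higher calls made up 40% and 33.8%, and lower calls 17% and 34.2%. The members' medians were 0.38 and 0.40, and those of all genes -0.05 and 0.00.

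Direction here depends on the scale, because a log2 value of 0 stands for the typical gene and not for no binding. Median-ratio size factors put the median of all genes at 0.14 and 0.13 and gave 102 higher and 35 lower over total RNA, and 85 and 27 against IgG. Library size alone put it at -0.96 and -1.02 and gave 46 higher and 96 lower, and 39 and 82. Leaving out each library in turn kept 129 of the 140 calls and 74 of the 114, the latter resting on 3 IgG libraries. With the replicate number as a block, all 140 calls over total RNA were kept. Of the 114 against IgG, 94 were kept, 66 higher and 28 lower. Both comparisons share the anti-HuR libraries, so their values are set side by side. Where 2 values follow a single member in parentheses below, they are log2 fold changes over total RNA and then over IgG.

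**Figure D4:**
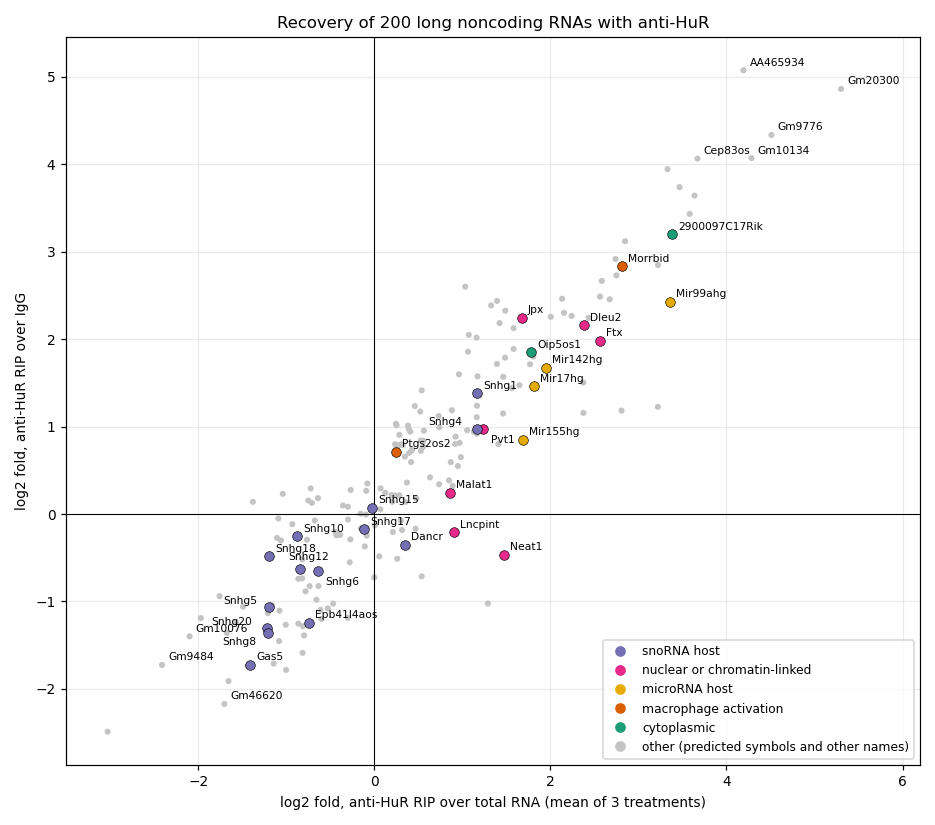
Each of the 200 members by its log2 fold change of anti-HuR over total RNA (horizontal) and over IgG (vertical), coloured by class, with lines at 0. Gm20300, AA465934, Gm9776 and Gm10134 lie at 4.07 or above on both axes, Malat1 lies at 0.85 and 0.25, Neat1 at 1.48 and -0.47, and Gas5 at -1.41 and -1.72.

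The members furthest above total RNA were predicted transcripts with little total RNA. Gm20300 had 0 to 1.51 (median 0.554) CPM in total RNA, 15.4 to 33.5 (median 21.5) CPM in RIP, and 1.01, 0.767 and 0.516 CPM in the IgG libraries of DMSO, LPS and LPS+TM7nox (log2 fold change 5.30, SE 0.29, adjusted p = 6.09e-15 over total RNA, 4.86 over IgG). AA465934 had 0.848 to 1.91 (median 1.25) CPM in total RNA, 13.4 to 36.1 (median 25.5) CPM in RIP and 1.07, 0.384 and 0.946 CPM in IgG (4.19 and 5.07). Gm9776 had 0.212 to 1.67 (median 0.650) CPM, 11.9 to 28.0 (median 17.5) CPM and 1.09, 0.512 and 1.38 CPM (4.51 and 4.33). In all 3 the lowest RIP library lay above the highest total RNA and IgG library. Gm10134 (4.28 and 4.07) and Cep83os (3.67 and 4.06) had the same order. These values stayed above 0 when scaled by library size alone. Gm9776 and Cep83os overlap exons of the coding genes Ap3b1 and Cep83 on the other strand, so without a stated strand setting reads could come from either gene. Such overlaps on the other strand exist for 57 members, and 5 share the strand with a coding exon.

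The 2 members known from the cytoplasm were both recovered above total RNA and IgG under each scaling. Norad (2900097C17Rik) had 61.7 to 138 (median 98.7) CPM in total RNA, 678 to 1876 (median 992) CPM in RIP and 83.0, 114 and 133 CPM in IgG (log2 fold change 3.38, SE 0.14, adjusted p = 1.06e-17 over total RNA, 3.20 over IgG). It and Malat1 held the first and second highest RIP levels of the 200 in every RIP library, with Malat1 higher in 7 of 12 and Norad in 5, of which 3 were LPS+TM7nox libraries. Oip5os1 had 14.9 to 30.0 (median 18.9) CPM, 40.7 to 117 (median 63.3) CPM and 25.9, 17.3 and 13.6 CPM (1.78 and 1.85). Of the activation members, Morrbid was recovered (log2 fold change 2.81, SE 0.10, adjusted p = 1.48e-18 over total RNA, 2.83 over IgG), with 2.88, 6.30 and 6.19 CPM in IgG. Ptgs2os2 was not called over total RNA (log2 fold change 0.24, SE 0.16, adjusted p = 0.157), while median-ratio size factors and DESeq2 called it higher and library size alone lower (-0.66). Over IgG it was called higher (log2 fold change 0.71, SE 0.29, adjusted p = 0.0351), a call lost without IgG DMSO replicate 3, IgG LPS replicate 3 or RIP LPS+TM7nox replicate 1 and with library size alone (-0.32).

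All 7 nuclear members were called above total RNA, with a median of 1.48, and 4 of 7 above IgG. Ftx (2.56 over total RNA, 1.98 over IgG), Jpx (1.67 and 2.25), Dleu2 (2.38 and 2.16) and Pvt1 (1.23 and 0.97) made up the 4. Without the IgG DMSO library the values of Ftx and Dleu2 over IgG were 2.79 and 2.78, and the block ended the Pvt1 call (adjusted p = 0.61). Malat1 was 0.85 above total RNA (SE 0.17, adjusted p = 6.68e-05) and 0.25 over IgG (adjusted p = 0.427). Neat1 was 1.48 and -0.47 (adjusted p = 0.36 over IgG), and Lncpint was -0.21 over IgG (adjusted p = 0.575). With the block both were called lower than IgG (adjusted p = 0.000655 and 0.0177), leaving 3 of 7 higher with a median of 0.22, against 0.97 without it. Malat1 stood at 2513, 565 and 951 CPM and Neat1 at 292, 35.6 and 164 CPM in the 3 IgG libraries, in the order DMSO, LPS and LPS+TM7nox. In the DMSO anti-HuR libraries Malat1 was at 1712, 4259, 1825 and 2272 CPM and Neat1 at 106, 269.8, 64.1 and 88.1 CPM, so the DMSO IgG library lay within the range for Malat1 and above it for Neat1. Library size alone left 4 of 7 called above total RNA, turned Malat1 and Lncpint just below 0 over total RNA (-0.071 and -0.0070), and put 3 above and 3 below IgG.

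Most listed snoRNA hosts were below total RNA. Of the 14, 9 were lower and 2 higher, with a median of -0.79. Against IgG 7 were lower and 2 higher, with a median of -0.56. Gas5 had 34.1 to 132 (median 49.1) CPM in total RNA, 10.1 to 36.8 (median 19.6) CPM in RIP and 65.0, 44.0 and 132 CPM in IgG (log2 fold change -1.41, SE 0.13, adjusted p = 2.32e-10 over total RNA, -1.72 over IgG). Snhg8 had 5.09 to 11.7 (median 7.92) CPM, 2.31 to 4.67 (median 3.57) CPM and 10.7, 7.61 and 9.03 CPM (-1.21 and -1.36). Snhg20 (-1.22 and -1.31) and Snhg5 (-1.20 and -1.06) lay on the same side, though the Snhg5 call against IgG was lost without IgG DMSO replicate 3. The exceptions were Snhg1 (log2 fold change 1.17, SE 0.14, adjusted p = 1.49e-08 over total RNA, 1.38 over IgG) and Snhg4 (1.17 and 0.97), which shares 246 exon bases on the same strand with a gene that GENCODE types as protein-coding. With median-ratio size factors the counts over total RNA were 3 higher and 7 lower, and with library size alone none higher and 12 lower.

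The 4 listed microRNA hosts were each called above total RNA, and 3 above IgG. Mir99ahg had 3.36 over total RNA and 2.43 over IgG, the latter 3.50 without the IgG DMSO library. Mir142hg, host of the blood-cell microRNA miR-142, had 1.95 and 1.67. Mir17hg had 1.82 and 1.46, with its IgG call lost without IgG LPS replicate 3 and with the block (adjusted p = 0.0683). Mir155hg had 1.69 over total RNA, and 0.85 over IgG was not called (adjusted p = 0.111). Library size alone left 3 called above total RNA and 1 above IgG.

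Some abundant members lay below total RNA and IgG. Gm46620 had 229.9 to 439.7 (median 309) CPM in total RNA, 66.9 to 139.6 (median 94.5) CPM in RIP and 408, 485 and 398 CPM in IgG (log2 fold change -1.71, SE 0.12, adjusted p = 6.43e-13 over total RNA, -2.17 over IgG). Gm10076 had 20.3 to 109 (median 95.1) CPM, 13.1 to 35.8 (median 18.7) CPM and 45.3, 46.5 and 65.6 CPM (-2.10 and -1.40). The single lowest total RNA library of Gm10076 was the shallow DMSO replicate 1. Gm44386, which falls outside the naming rule, had the lowest value over total RNA of the 200 (log2 fold change -3.03, SE 0.42, adjusted p = 3.33e-07), with 0.290 to 8.55 (median 2.93) CPM in total RNA, 0 to 0.949 (median 0.232) CPM in RIP and 0.753, 3.55 and 3.44 CPM in IgG. Its RIP and total RNA libraries overlapped. Gm9484 (-2.41 and -1.73) and Gm4316 (-1.97 and -1.19) were also below both, with the Gm4316 call against IgG lost without IgG DMSO replicate 3 and that of Gm9484 without IgG LPS replicate 3 or IgG LPS+TM7nox replicate 3.

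Recovery and U content were weakly to moderately correlated across members. GENCODE M39 gave exons for 196 of the 200, all of them lncRNA there. Across these, Spearman's rho of the log2 RIP over total RNA was 0.412 with the U share of exons, 0.325 with runs of 7 U per kb, 0.299 with AUUUA per kb, 0.327 with exon length and -0.349 with GC share. Against IgG the values were 0.375, 0.291, 0.269, 0.265 and -0.317. The points share their libraries, and U share, length and GC move together, so no p is given. The median U share was 27.69% in the 88 members called higher over total RNA with exons matched, 26.37% in the 60 not called and 25.48% in the 48 called lower. Runs of 7 U stood at 0.9536, 0.3735 and 0.08469 per kb in the same order. Over all 14152 genes tested with a match, rho with U share was 0.256, and over the 1121 lncRNA genes 0.196, so a relation with U was not limited to the members. The rho with exon length was 0.0335 over all these genes, 0.227 over the 11213 protein-coding genes and -0.18 over the lncRNA genes, the last opposite in sign to the 0.327 of the members. With runs of 7 U it was 0.289, 0.375 and 0.14 and with AUUUA 0.214, 0.225 and 0.134, in the same order. Among the stretches printed above, long runs of U stand in Gm20300, AA465934, Gm10134 and 2900097C17Rik, and also in Snhg8, while Gm9484 has a single short run and Gm4316 none.

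**Figure D5:**
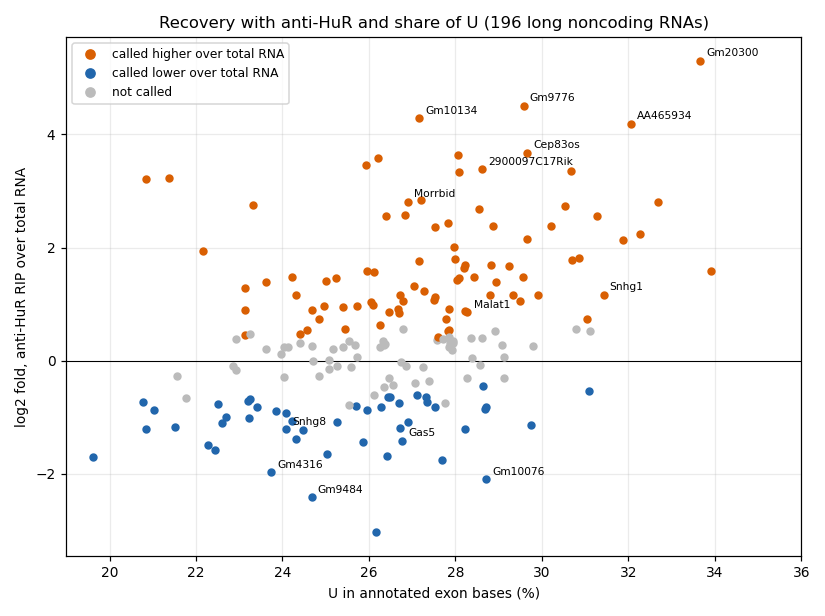
Share of U in the exons of 196 members (horizontal, percent) against the log2 fold change of anti-HuR over total RNA (vertical), coloured by call. Members called higher have a median U share of 27.69% and those called lower 25.48%, and the clouds overlap widely.

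Recovery did not change detectably with treatment. For the change of RIP over total RNA by LPS, 0 of 200 members were called by edgeR and 0 by DESeq2, with 20 at an unadjusted p under 0.05, and over all genes 0.0419% were called, 6 genes against 39 with total RNA and RIP libraries of the same treatment and number as pairs, a fit added after seeing the data in which 0 members were called. The members' median was -0.30 against 0.02 for all genes. For the change by TM7nox, 0 were called by either tool, with 7 at an unadjusted p under 0.05 and 0.00699% of all genes called, and the median was 0.13 against 0.00. Within a treatment, RIP over total RNA called 109 members in DMSO, 86 in LPS and 104 in LPS+TM7nox, beside 70.4%, 63.7% and 69.9% of all genes. The higher calls among them were 84, 59 and 77, beside 37.0%, 32.9% and 35.2% of all genes, and the lower calls 25, 27 and 27, beside 33.4%, 30.8% and 34.8%. Malat1 was above total RNA by 1.41 in DMSO, 0.42 in LPS and 0.73 in LPS+TM7nox. Its change by LPS was -0.99 (SE 0.42, adjusted p = 0.631). Norad had 3.32, 3.21 and 3.62, and Gas5 -1.10, -1.36 and -1.78. The change of Gas5 by TM7nox was -0.42 (SE 0.32, adjusted p = 0.875). The SEs of such changes are wide, and a p that misses the threshold does not show that recovery stayed the same.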

How the data were processed

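Read counts per gene were compared between 27 libraries of RAW264.7 cells: 12 of total RNA, 12 of anti-HuR RIP and 3 of control IgG. The authors deposited 1 table of raw, whole-number counts, not normalized, with symbols and transcript classes per the file headers. Per the submitters' processing notes, FastQC 0.11.9, STAR, HTSeq and DESeq2 were used with build GRCm39. Neither annotation release nor strand setting of the counting is given in the sources used here. Per the labels' protocols, libraries came from 7 ng of RNA with a stranded SMART-Seq kit. No molecular identifiers are stated, so intervals cover counting error only.

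From these counts, edgeR 4.0.16 in R 4.3.3 was run with TMM scaling and filterByExpr (minimum count 10) on all genes, in 1 fit of the total RNA libraries, 1 of the RIP libraries, 1 of both for RIP over total RNA and its changes, and 1 of RIP and IgG. Quasi-likelihood F tests, two-sided, were adjusted over all genes (Benjamini-Hochberg, threshold 0.05). Alternatives were DESeq2 1.42.0, other scalings and filters, a replicate block, that block within treatment (added after the data were seen), replicate pairs alone and leaving out each library. The self-check ran on simulated data. Figures use log2(CPM + 0.1).

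Named genes were the 10 most abundant members, the 5 largest and 5 smallest log2 fold changes per comparison among calls whose libraries do not overlap, and the members of class lists. The members, lists and tests were chosen with earlier results of these data known. The literal reading of the class name was added after the data were seen. Same-numbered libraries deviated together within total RNA (r from 0.116 to 0.274 over 12 pairs), within RIP (0.114 to 0.392 over 12 pairs) and between total RNA and RIP of the same treatment (0.126 to 0.319 over 12 pairs), so numbers were taken to pair these libraries in the block alternatives. The main fits, which gave the headline counts and adjusted p, did not use this pairing. Between total RNA and RIP of different treatments some pairs were under 0.1. RefSeq promoters are on GRCm38.p6 and exons are GENCODE M39 on GRCm39, and the 2 builds were not combined. One U-rich stretch and some overlapping genes are not reported here.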

Additional observations from a re-analysis of the deposited data

Results flagged for a closer look

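In groups of 4 libraries, 1 library can stand far from the other 3. By Dixon's gap ratio at its 95% critical value, this was so in 23 of 420 groups of named members (5.48%), while chance gives about 1 in 20. Values below are CPM and no cause was tested. RNA DMSO replicate 1, the shallowest library at 2.73 M counts, was the one apart in 7 of the 23 groups. It was highest for Gm46224 at 4.24 (the others 1.58 to 2.01), Snhg20 at 8.05 (the others 3.78 to 4.21), Mir142hg at 19.3 (the others 1.78 to 3.66), Snhg10 at 3.39 (the others 0.875 to 1.03) and Gm16576 at 1.70 (the others 1.03 to 1.11). It was lowest for Gm10076 at 20.3 (the others 83.6 to 93.9) and Epb41l4aos at 0 (the others 1.64 to 1.68). RIP DMSO replicate 1 was highest for Gm47729 at 0.237 (the others 0 to 0.0331). RIP DMSO replicate 2 was highest for Pvt1 at 6.88 (the others 3.49 to 3.76). RIP DMSO replicate 4 was lowest for 1110038B12Rik at 20.998 (the others 27.3 to 28.2). RIP LPS replicate 2 was highest for Gm20186 at 25.1 (the others 15.6 to 16.9). RIP LPS replicate 3 was lowest for Snhg17 at 3.83 (the others 4.95 to 5.1). RIP LPS+TM7nox replicate 1 was highest for Snhg15 at 13.8 (the others 6.84 to 7.25) and Dancr at 2.51 (the others 1.29 to 1.36). RIP LPS+TM7nox replicate 2 was lowest for Gas5 at 26.0 (the others 35.5 to 36.8) and D730003I15Rik at 1.90 (the others 3.14 to 3.28). RIP LPS+TM7nox replicate 3 was highest for Epb41l4aos at 0.999 (the others 0.807 to 0.813). RNA DMSO replicate 2 was highest for Malat1 at 1623 (the others 805 to 862) and Gm47729 at 0.0257 (the others at 0). RNA LPS+TM7nox replicate 1 was highest for Snhg17 at 9.18 (the others 5.92 to 6.39) and 2210408F21Rik at 4.96 (the others 2.35 to 2.59). RNA LPS+TM7nox replicate 2 was highest for G730013B05Rik at 31.6 (the others 21.8 to 22.8) and Gm10419 at 2.17 (the others 1.21 to 1.36). For Malat1 the library apart was a DMSO one and its call in LPS was lost without it.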

How the results depend on the processing

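Calls with LPS were fewest with replicates 1 and 2 alone, 15 of the members in total RNA against 62 and 56 in RIP against 86. With TM7nox in total RNA, 18 calls became 28 by DESeq2, 33 with the replicate block, 1 with replicates 1 and 2 alone, 32 with replicates 3 and 4 alone, and 9 to 14 without single libraries. With TM7nox in RIP, 23 became 43 with the replicate block, 9 with replicates 1 and 2 alone, 10 with replicates 3 and 4 alone, and 15 to 19 without single libraries. Without single libraries the counts were 46 to 70 (LPS, total RNA), 70 to 91 (LPS, RIP), 136 to 145 (RIP over total RNA) and 91 to 115 (against IgG). The block changed no other count of members by more than 1.5 times. Pairing total RNA with RIP within a treatment, added after seeing the data, gave 145 calls over total RNA against 140, with 138 shared. Members by the spelling lncRNA alone, chosen after seeing the data, gave 10 and 4 calls of 51 in total RNA, 29 and 10 of 66 in RIP, 49 of 75 over total RNA and 43 of 81 against IgG, for fewer genes tested. Ranking by mean CPM shared 192 of 200 members.

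Library size alone reversed 13 of the values called for named members, other values not being counted: for LPS in RIP, Gm10076 to -0.020. Over total RNA it put 2500002B13Rik at -0.15, Gm38414 at -0.35, Gm46224 at -0.45, Lncpint at -0.0070 and Malat1 at -0.071. Over IgG it put 1110038B12Rik at -0.68, 2500002B13Rik at -0.023, 4933404O12Rik at -0.21, AU022793 at -0.23, Ptgs2os2 at -0.32, Pvt1 at -0.013 and Snhg4 at -0.047. Across the 168 members with predicted symbols, called or not, library size alone took positive signs from 105 to 56 over total RNA. Over IgG they went from 108 to 54. The cause of the other changes was not tested. Members near 1 CPM rest on few reads, above all in RNA DMSO replicate 1.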
